A study of Mus musculus with 17 samples.

Results

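The 4 wild-type libraries of mouse bone marrow-derived macrophages cultured with transforming growth factor beta 1 (TGF-β1) were set against the 5 wild-type control libraries, across all genes, by the treatment given on each library's label. These 9 libraries are part of a series of 17, whose other 8 carry the label Smad3 knockout. The wild-type TGF-β1 group (n = 4) and the wild-type control group (n = 5) were both Smad3-WT, on the C57BL/6J (H-2b) background. In both, M-CSF (macrophage colony-stimulating factor, 50 ng/ml for 7 days) had turned bone marrow cells into macrophages, and the TGF-β1 group then received 5 ng/ml of the cytokine for 5 days. The treatment text is the same for every library, and the sources used here do not say whether control cells stayed in culture for those days. RNA was amplified by SMART-seq2, a protocol for very small amounts of RNA that copies full-length transcripts. The sources speak both of single-cell sequencing and of a kit that extracts RNA from a suspension of cells, so it is not settled whether a library is 1 cell or many. They also speak of a sort of F4/80-expressing cells by smooth muscle actin, but no label assigns a library to a sort gate. The labels name neither animals nor cultures, so a p-value here reflects nothing beyond the spread among libraries, and that spread may be technical or lie between cells of 1 culture.

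TGF-β is a secreted cytokine that binds a pair of receptor kinases, which phosphorylate Smad2 and Smad3. These join Smad4, enter the nucleus and regulate target genes, among them inhibitors that end the signal. In mice, TGF-β is needed for microglia, the macrophages of the brain, to keep their typical genes, and it restrains inflammatory activation of macrophages elsewhere. In injured kidney, macrophages under TGF-β can take on genes of contractile, matrix-producing myofibroblasts, which is the process the series addresses.

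Expression is given as TPM, a unit of transcript abundance that is corrected for length and sums to one fixed total in each library, so read depth is unknown. Between 8218 and 9974 genes reached TPM 1 in the TGF-β1 libraries and between 7269 and 9262 in the controls. The mean was 8902 ± 776 with TGF-β1 and 8379 ± 761 in controls (SD), a difference that did not pass a two-sided exact permutation test (p = 0.349, smallest possible 0.0159). Each of 20 housekeeping genes was above 0 in all 9 libraries. TGF-β1 library 3 stood apart from the other 3 TGF-β1 libraries in several genes described below. It also had the highest share of moderately expressed genes listed at 0, 14.8%, against 4.81% to 9.64% in those 3 libraries and 6.94% to 12.03% in controls.

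The libraries held transcripts of macrophage markers, though not of every one. Lyz2, which encodes lysozyme, was at 23098, 17939, 15881 and 19824 TPM in TGF-β1 libraries 1 to 4, against 19175, 7979.8, 13310.5, 10711 and 39900.4 TPM in control libraries 1 to 5. Cd68, a lysosomal membrane protein of macrophages, was at 2122 to 2897 TPM with TGF-β1 and 1435 to 3646 TPM in controls, and both genes overlapped between the groups. Itgam, an integrin chain of macrophages, was lower, at 52.17 to 81.35 TPM with TGF-β1 and 27.55 to 140.99 TPM in controls. Mertk, also a macrophage marker, was at 0 to 0.02 TPM with TGF-β1 and at 0, 0, 0.02, 23.56 and 6.51 TPM in controls. Of the markers of other cells, 8 of 9 fibroblast genes, 7 of 8 neutrophil genes and 5 of 5 mast cell genes were listed at 0 in all 9 libraries. The summed level of the fibroblast markers was 0 to 9.72 TPM with TGF-β1, with all of it in library 4, and 0 to 0.01 TPM in controls. The neutrophil markers summed to 0 TPM with TGF-β1 and to 0 to 132 TPM in controls, all but a trace of it S100a8 in control library 4. Of 6 endothelial genes 4 were listed at 0 in all 9 libraries, among them Pecam1 and Cdh5, but Vwf and Kdr were present. Together these summed to 12.27 to 47.95 TPM with TGF-β1 and 20.09 to 58.85 TPM in controls, and the part of such transcripts in the results was not tested. Smad3 itself was listed at 0 in all 4 TGF-β1 libraries, against 0, 0.01, 0, 15.4 and 11.5 TPM in control libraries 1 to 5.

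With TGF-β1, Cd36, Lpl and Plin2, which serve lipid uptake and storage, fell, Ctsd and Man2b1, which encode lysosomal enzymes, rose, and a small set of transcripts that was almost silent in controls appeared. In limma's test on log2(TPM + 1), with Benjamini-Hochberg adjustment over all 12158 genes tested, 22 genes passed an adjusted p of 0.05, 0.181% of those tested. Of these, 13 were higher with TGF-β1 (0.107%) and 9 were lower (0.074%). At an unadjusted p of 0.05, 1212 genes passed (9.97%), 815 of them higher (6.7%) and 397 lower (3.27%). The TGF-β1 libraries all lay above the controls for 219 genes (1.8%) and all below them for 120 genes (0.987%), and 21 of the 22 called genes were among these, Vim being the exception. Of all tested genes, 53.8% had a positive and 45.9% a negative difference. Their median was 0.09 on the log2 scale, and differences of gene groups are read against that value. Within gene groups, counts of genes without overlap or at an unadjusted p under 0.05 are read against the shares given above. In amplified RNA of this kind, fewer cells of a type and less RNA per cell cannot be told apart.

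**Figure D1:**
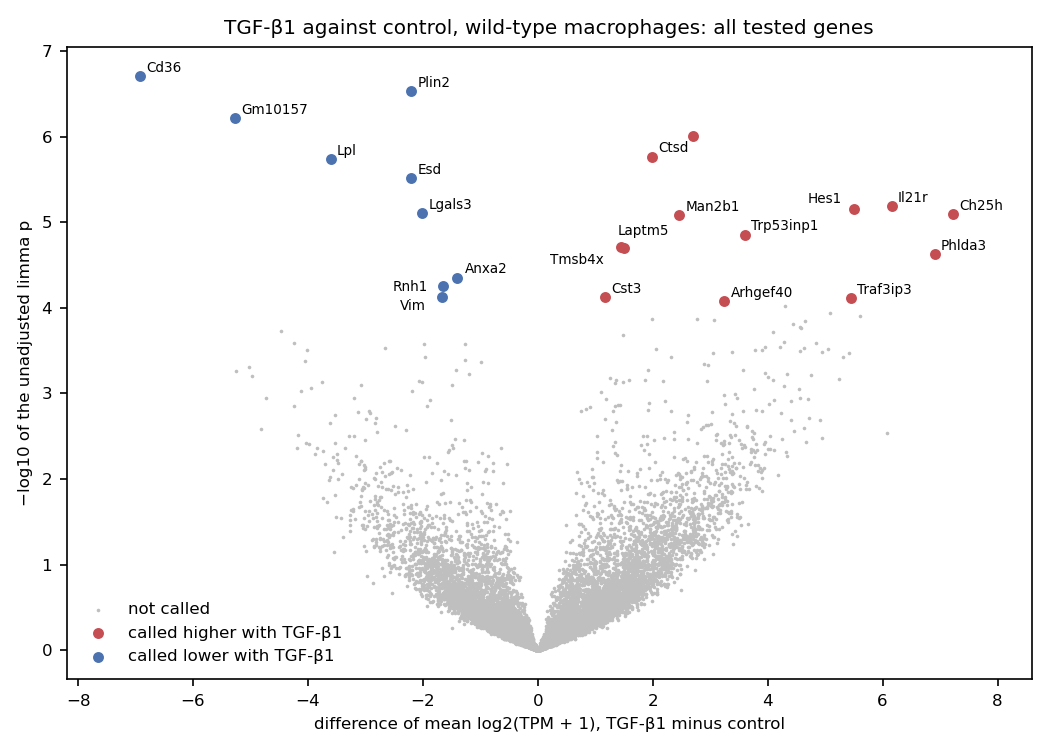
Each point is 1 of the 12158 genes tested, by its difference of mean log2(TPM + 1), TGF-β1 minus control (x axis), and the −log10 of its unadjusted limma p (y axis). Red points are the 13 genes called higher with TGF-β1 and blue points the 9 called lower, and Cd36 (log2 -6.92) and Ch25h (log2 7.23) lie farthest out.

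How firm these calls are differed by gene. Of the 22, 11 kept their calls when any 1 of the 9 libraries was omitted, among them Cd36, Plin2, Gm10157, Ctsd, Lpl, Esd, Il21r, Hes1, Ch25h and Trp53inp1. The other 11 lost the call in at least 1 of those 9 fits, as given with each of them. The libraries also differed in cell cycle genes: the mean log2(TPM + 1) over 70 S phase and mitosis genes was 6.27 to 6.83 in TGF-β1 libraries and 3.19 to 6.33 in controls. With that mean as a covariate, limma called 7 genes, of which 5 were among the 22, including Cd36, Plin2, Ctsd and Man2b1. When the 9 wild-type libraries were fitted without those labelled knockout, 5 genes were called, including Plin2, Lpl, Il21r and Phlda3. The size of the difference moved by more than 1.5 times with the pseudocount for 9 of the 22. With a pseudocount of 10, and then of 0.1, it was -3.98 and -9.03 for Cd36 and -3.07 and -7.08 for Gm10157. In the same order it was 3.095 and 8.82 for Il21r, 2.54 and 8.54 for Hes1, 4.71 and 9.17 for Ch25h, 1.29 and 5.98 for Trp53inp1, 3.74 and 9.91 for Phlda3, 2.95 and 7.47 for Traf3ip3, and 0.99 and 6.13 for Arhgef40.

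**Figure D2:**
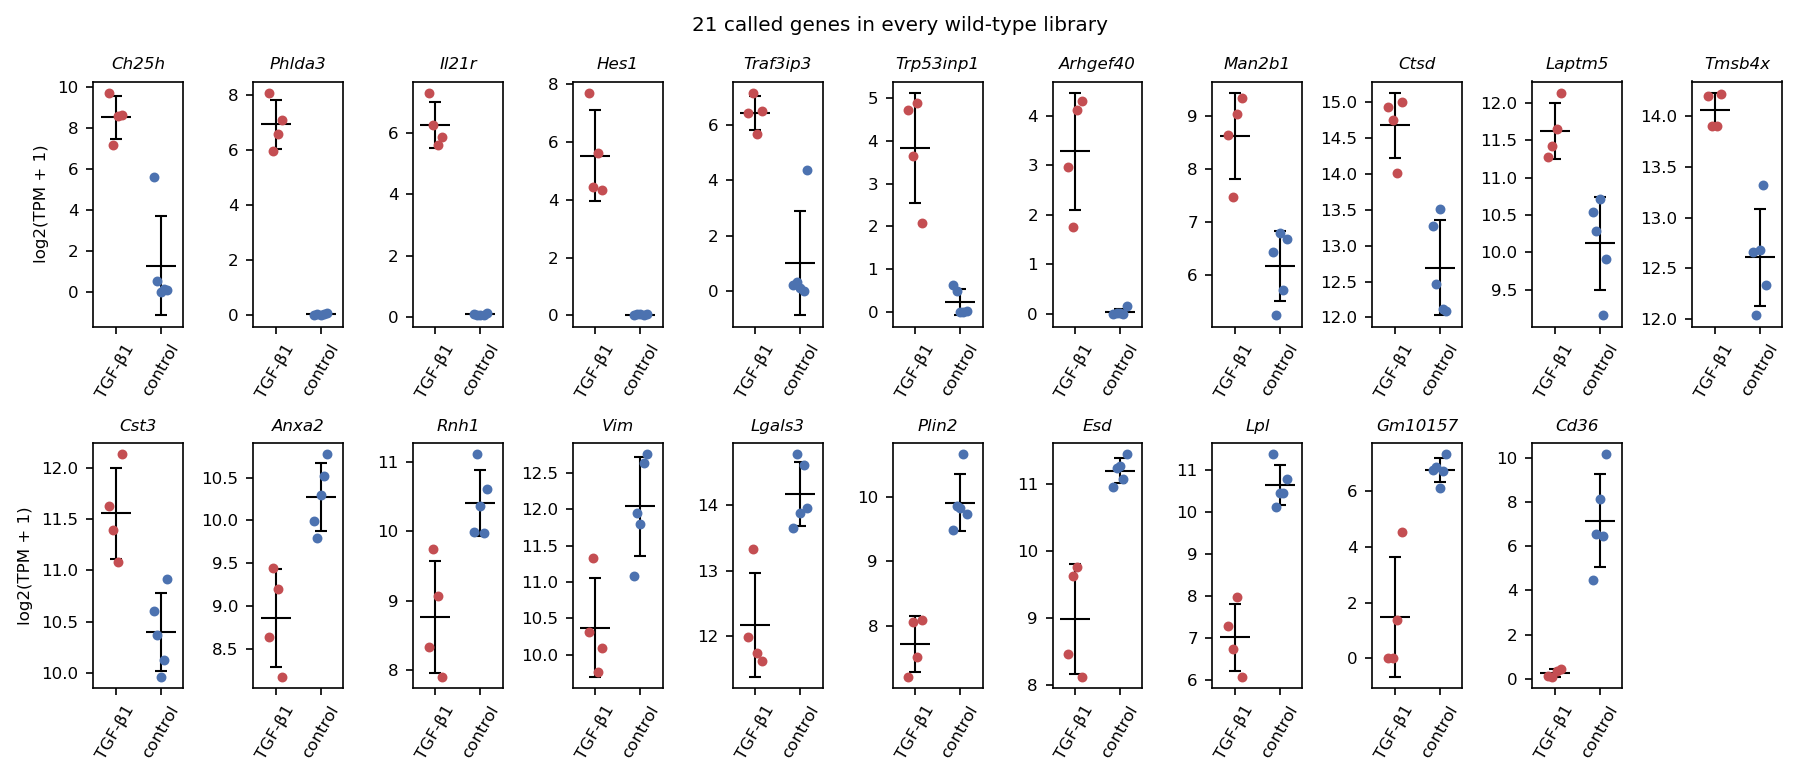
Each panel shows 1 of 21 called genes in log2(TPM + 1), with 1 point per library, the 4 TGF-β1 libraries in red at the left and the 5 controls in blue at the right, and the mean ± SD in black. The y axes differ between panels and do not start at 0, and in every panel except Vim the groups do not overlap.

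Uptake and storage of fatty acids held the largest fall among the called genes. Cd36 (ENSMUSG00000002944, chromosome 5) encodes a surface receptor for long-chain fatty acids and modified lipoproteins. Its TPM was 0.09, 0.06, 0.29 and 0.36 in TGF-β1 libraries 1 to 4, against 21.5, 93.04, 284, 87.6 and 1161 in control libraries 1 to 5. The transcript was thus nearly absent from every TGF-β1 library, while the controls ranged widely. The log2 difference was -6.92 ± 0.89 (SE; limma adjusted p = 0.00179). Lpl (chromosome 8), the lipase that frees fatty acids from lipoproteins, was at 156, 106, 249 and 66.7 TPM with TGF-β1, against 2639, 1105, 1386, 1395 and 1761 TPM in controls, and fell by 3.61 on the log2 scale (SE 0.54; adjusted p = 0.00371). Plin2 (chromosome 4), which coats lipid droplets, was at 146, 266, 182 and 272 TPM with TGF-β1, against 717, 928, 912, 1634 and 850.5 TPM in controls, a log2 difference of -2.202 ± 0.29 (adjusted p = 0.00179). Every TGF-β1 library lay below every control for these genes.

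These were the only called genes among the 19 tested of 24 genes of fatty acid uptake and storage, where 14 differences were negative and 5 positive, with a median of -0.81. Fabp4, a fatty acid carrier of macrophages and fat cells, was at 0.08, 9.12, 0.09 and 0 TPM with TGF-β1, against 34.3, 295, 47.9, 0.43 and 5.41 TPM in controls. Both groups held low libraries, and its difference of -3.54 ± 1.85 did not pass (adjusted p = 0.547). Cpt1a, which brings fatty acids into mitochondria for oxidation, was at 16.9, 17.5, 20.9 and 0 TPM with TGF-β1, against 63, 28.7, 53.2, 70.9 and 22.7 TPM in controls. The groups did not overlap, but its difference of -2.27 ± 0.82 did not pass either (adjusted p = 0.341).

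The proximal promoters of Cd36 and Plin2 are shown because both transcripts were lower in every TGF-β1 library and both promoters hold the letters AGGTCA, the half-site that many nuclear receptors recognise, here on the reverse strand. RefSeq promoter entries (GRCm38.p6) were matched by symbol for 17 of the 22 called genes, and the 250 bases before the annotated gene start were read 5′ to 3′ on the gene's strand. The Cd36 window is chr5:17835897-17836146 and the Plin2 window chr4:86670060-86670309, both on the minus strand. Capitals mark the match.
Cd36: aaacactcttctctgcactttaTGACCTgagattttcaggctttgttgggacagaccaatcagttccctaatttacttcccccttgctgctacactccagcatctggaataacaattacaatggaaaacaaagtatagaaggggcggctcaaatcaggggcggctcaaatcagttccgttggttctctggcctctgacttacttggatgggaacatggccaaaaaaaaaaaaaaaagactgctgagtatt
Plin2: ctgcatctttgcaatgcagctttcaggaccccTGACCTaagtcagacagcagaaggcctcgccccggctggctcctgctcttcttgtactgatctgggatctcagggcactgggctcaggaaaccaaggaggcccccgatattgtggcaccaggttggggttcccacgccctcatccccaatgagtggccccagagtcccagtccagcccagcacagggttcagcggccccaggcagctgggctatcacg
Searched on both strands, AGGTCA occurred in 7 of the 17 called promoters and in 14.02% of 32851 RefSeq promoter windows of the same length. Of those 7 genes, Cd36, Plin2 and Rnh1 fell, while Traf3ip3, Cst3, Il21r and Ctsd rose. CAGAC, the box that Smad3 and Smad4 bind, occurred in 11 of 17 and in 42.2% of all windows, and it can overlap AGGTCA by its first letters. A match is a description of the sequence and not of binding.

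Of the genes of cholesterol handling, Ch25h rose with TGF-β1. Ch25h (chromosome 19), whose enzyme hydroxylates cholesterol to an oxysterol that signals to immune cells, was at 833, 141, 384 and 388 TPM in TGF-β1 libraries 1 to 4, against 48.1, 0.45, 0, 0.12 and 0.07 TPM in control libraries 1 to 5. All TGF-β1 libraries expressed it, while control library 1 was the only control above 1 TPM. The log2 difference was 7.23 ± 1.21 (adjusted p = 0.00846). It was the only called gene of 14 tested in oxysterol and cholesterol export, whose median was 0.31, with 8 positive and 6 negative differences. That median was negative without control library 1 and also without TGF-β1 library 2 or 4.

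Apoe, the lipoprotein that carries cholesterol out of macrophages, was at 0, 0, 0.19 and 0.05 TPM with TGF-β1, against 39.97, 0.48, 34.2, 2053 and 22.6 TPM in controls. The groups did not overlap and control library 4 held most of the transcript. Its difference of -5.25 ± 1.27 did not pass (adjusted p = 0.0984). Soat1, which esterifies cholesterol for storage, was at 29.3, 72.2, 39.8 and 70.5 TPM with TGF-β1, against 138, 188, 106, 117 and 50.8 TPM in controls, with a difference of -1.14 ± 0.54 (adjusted p = 0.499). None of 25 tested genes of sterol and fatty acid synthesis was called by limma, and 2 had an unadjusted p under 0.05, against 9.97% of all genes tested. The median of the 25 was -0.36, and it was positive with the cell cycle mean as a covariate. Msmo1, an enzyme of late cholesterol synthesis, was at 58.4, 87.1, 37.2 and 44.1 TPM with TGF-β1, against 222, 87.8, 426, 107 and 125 TPM in controls, without overlap (adjusted p = 0.256).

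Transcripts of several lysosomal proteins rose, among them Ctsd, the most abundant of the called genes in each TGF-β1 library. Ctsd (ENSMUSG00000007891, chromosome 7) encodes cathepsin D, an aspartic protease of lysosomes. Its level was 31342, 27632, 16485 and 32752 TPM in TGF-β1 libraries 1 to 4, against 9931, 5633, 11722, 4442 and 4365 TPM in control libraries 1 to 5. In TGF-β1 libraries 1 and 4 it was the most abundant transcript of all, at 3.13% and 3.28% of the library. The log2 difference was 1.98 ± 0.297 (adjusted p = 0.00371). Man2b1 (chromosome 8), the lysosomal enzyme that trims alpha-linked mannose, was at 399.8, 176, 530.0 and 649.7 TPM with TGF-β1, against 85.1, 36.4, 109, 51.5 and 101 TPM in controls, a difference of 2.46 ± 0.41 (adjusted p = 0.00846). The lowest TGF-β1 value of each enzyme exceeded its highest control. Without TGF-β1 library 4, Man2b1 was no longer called (adjusted p = 0.0582).

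Ctsd is also the called gene whose promoter window holds CACGTG, the core of the element bound by the lysosomal regulator TFEB, more than once, and it is shown for that reason. The window is chr7:142387828-142388077 (GRCm38.p6, minus strand, RefSeq), with both matches in capitals.
Ctsd: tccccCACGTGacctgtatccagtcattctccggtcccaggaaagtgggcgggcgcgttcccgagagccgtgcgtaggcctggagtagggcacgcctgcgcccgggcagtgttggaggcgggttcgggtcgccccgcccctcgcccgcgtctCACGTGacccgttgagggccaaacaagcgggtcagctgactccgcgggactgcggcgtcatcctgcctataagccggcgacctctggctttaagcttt
CACGTG reads the same on both strands. It occurred in 2 of the 17 matched promoters of called genes, those of Ctsd and Rnh1, and in 6.02% of all 32851 windows. Rnh1 fell and Ctsd rose, so the 2 called genes with this match moved in opposite directions.

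The membrane protein Laptm5 (chromosome 4), which sits in lysosomes of blood cells, was at 2475, 2737, 3207 and 4498 TPM with TGF-β1, against 1487, 1249, 1675, 569 and 958 TPM in controls, a log2 difference of 1.4996 ± 0.27 (adjusted p = 0.0161). It was not called without TGF-β1 library 4 (adjusted p = 0.086). Cst3 (chromosome 2), the secreted cathepsin inhibitor cystatin C, was at 3159, 2697, 2161 and 4491 TPM with TGF-β1, against 1551, 1327, 997, 1119 and 1936 TPM in controls, a difference of 1.16 ± 0.23 (adjusted p = 0.0446). The groups did not overlap, but the call is weak. It was lost with control library 2 (0.0804), 3 (0.0975) or 4 (0.0951) left out, or TGF-β1 library 1 (0.11), 2 (0.0782) or 4 (0.129), the values being adjusted p. Upper-quartile scaling also ended it (0.0795).

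The rise was not shared by all lysosomal genes. Of 17 tested proteases and protease inhibitors, 2 were called, both higher, with 10 positive and 7 negative differences and a median of 0.24. A further list of 40 tested lysosomal genes was mostly hydrolases and membrane proteins, but also held the transcription factors Tfeb, Tfe3 and Mitf. In that list 3 were called, all higher, with 27 positive and 13 negative differences and a median of 0.45. None of the 18 tested subunits of the V-ATPase, the pump that acidifies lysosomes, was called by limma, and their median was -0.08. Of the 18, 2 had an unadjusted p under 0.05, against 9.97% of all genes tested. Ctsl, a cysteine cathepsin, was at 384, 1001, 442 and 526 TPM with TGF-β1, against 1604, 2989.6, 449, 4096 and 5241 TPM in controls, so 4 controls were above every TGF-β1 library and 1 was not (difference -1.98 ± 0.64, adjusted p = 0.272). Ctsc, which activates other proteases, was at 368, 486, 216 and 326 TPM with TGF-β1, against 127, 94.4, 85.2, 304 and 102 TPM in controls (adjusted p = 0.332). The cytosolic cathepsin inhibitor Cstb was at 715, 1352, 1436 and 1104 TPM with TGF-β1, against 2448, 3168, 2926, 2837 and 2119.7 TPM in controls, below every control, with a difference of -1.26 ± 0.29 that missed the threshold (adjusted p = 0.0766). Scarb2, the receptor that carries glucocerebrosidase to lysosomes, was at 76.6, 127, 158 and 372 TPM with TGF-β1, against 27.2, 89.1, 83, 50.4 and 0.12 TPM in controls (adjusted p = 0.332).

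Genes that mark microglia in the healthy brain were examined next. Of 15 such genes 2 were listed at 0 in all 9 libraries and 9 were tested. Of the 9, 1 was called, 8 differences were positive, and the median was 2.86, with a range of 2.08 to 3.98 over the 22 alternatives. Members too low to be tested are left out of that median. Among the wild-type libraries P2ry12 and P2ry13 reached TPM 1 only with TGF-β1, so the filter favours a positive median. Tmem119, a membrane protein used to tell microglia from other macrophages, was at 334, 99.6, 0 and 227 TPM with TGF-β1, against 3.41, 2.28, 0, 0 and 0 TPM in controls. P2ry13, a receptor for extracellular ADP, was at 139.6, 64.2, 0 and 88.8 TPM with TGF-β1, against 0, 0.02, 0, 0 and 0 TPM in controls. P2ry12, the related receptor by which microglia sense injury, was at 18.8, 21.1, 0 and 63.2 TPM with TGF-β1, against 0.05, 0.03, 0, 0 and 0 TPM in controls. These transcripts were present in TGF-β1 libraries 1, 2 and 4 and listed at 0 in library 3, so the groups overlapped, and none passed (adjusted p = 0.226, 0.18 and 0.349).

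Olfml3, a secreted protein of microglia, was at 36.2, 33.6, 62.4 and 123 TPM with TGF-β1, against 0.03, 10.5, 0.03, 0.09 and 40.5 TPM in controls (adjusted p = 0.247). Here library 3 was among the high ones, and control library 5 overlapped the TGF-β1 range. Cx3cr1, the fractalkine receptor, was at 321, 157, 431 and 546 TPM with TGF-β1, against 255, 0.36, 205, 131 and 31.1 TPM in controls (adjusted p = 0.421). Mertk, a receptor for engulfment of dying cells and the only member with a negative difference, was at 0, 0, 0 and 0.02 TPM with TGF-β1, against 0, 0, 0.02, 23.6 and 6.51 TPM in controls. Markers of dendritic cells and lymphocytes stayed at summed levels of at most 4.69 TPM with TGF-β1 and 19.25 TPM in controls.

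None of the 12 tested complement genes was called by limma, 5 had an unadjusted p under 0.05, and the median was 0.13. C1qc, a chain of the recognition protein C1q, was at 638, 2048, 286 and 474 TPM with TGF-β1, against 20.8, 0.88, 363, 80.7 and 181 TPM in controls, a difference of 3.8000 ± 1.04 (adjusted p = 0.157). C1qa, another chain of it, was at 32.2, 328, 298 and 6.14 TPM with TGF-β1, against 0.71, 0.65, 41.6, 0.05 and 58.7 TPM in controls, with 2 TGF-β1 libraries within the control range. C1qb, the remaining chain, was named after its values were seen, at 213, 2090.3, 0.1 and 0.35 TPM with TGF-β1, against 1.25, 1.59, 329.9, 85.4 and 423 TPM in controls. The controls lay within the range of the TGF-β1 libraries, and its difference of -0.38 ± 1.85 had the opposite sign (adjusted p = 0.981). Of 29 tested genes of macrophage identity none was called by limma and 4 had an unadjusted p under 0.05. Csf1r, the receptor for M-CSF, was at 586, 694, 1197 and 940.5 TPM with TGF-β1, against 498, 270.3, 628, 177 and 262 TPM in controls (adjusted p = 0.157). Adgre1, which encodes the sorting antigen F4/80, was at 359, 591, 217 and 432 TPM with TGF-β1, against 326, 25.4, 98.7, 112 and 103 TPM in controls (adjusted p = 0.233). For both, the highest control library exceeded the lowest TGF-β1 library.

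Several transcripts appeared with TGF-β1 that controls almost lacked. Hes1 (chromosome 16), a transcriptional repressor best known as a target of Notch, was at 208, 20.9, 48.1 and 19.2 TPM with TGF-β1, against 0, 0.04, 0.04, 0 and 0.03 TPM in controls, a difference of 5.497 ± 0.91 (adjusted p = 0.00846). TGF-β1 library 1 was far above the other 3, and no control reached 0.1 TPM. It was the only called gene of 23 tested in the Notch pathway, with 12 positive and 11 negative differences and a median of 0.11, the sign of which changed under quantile normalization. Lfng, which adds sugars to Notch receptors, was at 32.3, 14.4, 4.84 and 10.3 TPM with TGF-β1, against 3.01, 2.81, 3.4, 1.88 and 0.06 TPM in controls, with no overlap but no call (adjusted p = 0.5).

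Il21r (chromosome 7), the receptor chain for interleukin-21, was at 157, 75.2, 47.6 and 56.8 TPM with TGF-β1, against 0.08, 0.04, 0.06, 0.05 and 0.11 TPM in controls, a difference of 6.16 ± 1.02 (adjusted p = 0.00846). It was the only called gene of 24 tested cytokine receptors, whose median was 0.06 and turned negative under upper-quartile scaling and quantile normalization. Traf3ip3 (chromosome 1), an adaptor that binds TRAF3, was at 86.04, 144, 50.1 and 90.6 TPM with TGF-β1, against 0.16, 0.24, 0.06, 0 and 19.96 TPM in controls, where library 5 was the only one above 1 TPM. Its difference was 5.45 ± 1.1003 (adjusted p = 0.0446), and it was called in just 1 of the 9 fits that left out a library, that without control library 5. In the other 8 the adjusted p was 0.0583 (without TGF-β1 library 3) to 0.109 (without TGF-β1 library 2). Arhgef40 (chromosome 14), an exchange factor that activates small GTPases, was at 6.78, 2.37, 16.4 and 18.8 TPM with TGF-β1, against 0, 0.01, 0.01, 0 and 0.12 TPM in controls, a difference of 3.25 ± 0.66 (adjusted p = 0.0464). It too was called in just 1 of the 9, that without TGF-β1 library 2, and in the other 8 the adjusted p was 0.0708 (without TGF-β1 library 1) to 0.102 (without TGF-β1 library 4). Arhgef40 was called under 0 of the 13 other alternatives.

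Of the genes that p53 induces, Phlda3 and Trp53inp1 rose with TGF-β1. p53 is a transcription factor activated by DNA damage and other stress, and its targets halt the cell cycle or start cell death. Of 30 tested targets, 2 were called, both higher, 28 differences were positive and 2 negative, and the median was 1.51, with a range of 0.66 to 2.09 over the alternatives. For 6 of the 30 all TGF-β1 libraries lay above all controls, against 1.8% of all genes tested. Among the wild-type libraries Phlda3 and Trp53inp1 reached TPM 1 only with TGF-β1, and the filter can favour positive differences in such members. The list was also chosen with earlier results of these data known, so these counts describe the list and test nothing. Phlda3 (chromosome 1), an inhibitor of the survival kinase Akt, was at 274, 62.6, 95.9 and 136 TPM with TGF-β1, against 0, 0.04, 0, 0.04 and 0.07 TPM in controls. Controls had hardly any transcript, and the difference was 6.91 ± 1.26 (adjusted p = 0.018). It was not called without TGF-β1 library 1 (adjusted p = 0.0728) or 4 (0.0627). Trp53inp1 (chromosome 4), a stress-induced protein that promotes p53 activity, was at 25.2, 11.6, 28.5 and 3.23 TPM with TGF-β1, against 0.54, 0.41, 0, 0 and 0.01 TPM in controls, a difference of 3.61 ± 0.63 (adjusted p = 0.0131). It was not called under quantile normalization (adjusted p = 0.069). With the cell cycle mean as a covariate neither gene was called (adjusted p = 0.175 for Phlda3 and 0.192 for Trp53inp1). The differences in that fit were 6.88 for Phlda3 and 3.31 for Trp53inp1, beside 6.91 and 3.61 without the covariate.

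Cdkn1a, which encodes the cell cycle inhibitor p21 and is induced by both p53 and TGF-β, was at 3422, 1233, 715 and 2329 TPM with TGF-β1, against 372, 101, 112, 307 and 600.3 TPM in controls. The groups did not overlap, and the difference of 2.76 ± 0.59 lay just outside the threshold (adjusted p = 0.0595). Sat1, an enzyme that breaks down polyamines, was at 903, 1328, 1408 and 2154 TPM with TGF-β1, against 304, 446, 271, 527 and 262 TPM in controls (difference 1.99 ± 0.42, adjusted p = 0.0595). Bbc3, which encodes the death-promoting protein PUMA, was at 26.9, 26.4, 16.2 and 20.1 TPM with TGF-β1, against 12.2, 0.13, 0, 0 and 0.06 TPM in controls (adjusted p = 0.224). Sesn2, a stress sensor that restrains mTOR, was at 30.2, 15.6, 19.6 and 35.3 TPM with TGF-β1, against 0, 0, 12.7, 0 and 1.92 TPM in controls (adjusted p = 0.3). In each of these 4 genes the lowest TGF-β1 library exceeded the highest control. Averaged over the 30 targets, log2(TPM + 1) was 4.82, 4.85, 3.39 and 5.08 in TGF-β1 libraries 1 to 4, against 2.76, 3.15, 2.77, 2.77 and 3.16 in control libraries 1 to 5, and library 3 was closest to the controls.

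Cell cycle genes differed among the libraries as much as between the groups. All 34 tested mitosis genes had positive differences (median 2.36), as did 31 of 36 S phase genes (median 1.06), and none of either list was called by limma. At an unadjusted p of 0.05, 13 mitosis and 8 S phase genes passed. The mean over the mitosis genes was 7.61, 7.14, 6.09 and 7.94 on the log2 scale in TGF-β1 libraries 1 to 4, against 2.08, 7.07, 1.54, 6.41 and 7.09 in control libraries 1 to 5. Control libraries 1 and 3 were low, while the other 3 controls reached the range of the TGF-β1 libraries. S phase genes averaged 6.05, 6.28, 7.52 and 4.69 with TGF-β1, against 6.25, 5.64, 4.76, 3.93 and 4.84 in controls, so that TGF-β1 library 3 was highest for these and lowest of its group for mitosis, and library 4 the reverse. Without the libraries in which over 10% of moderately expressed genes were at 0, the S phase median was -0.14. With the cell cycle mean as a covariate the mitosis median was -0.70. That mean contains the mitosis genes themselves, so this change of sign says nothing about them.

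**Figure D3:**
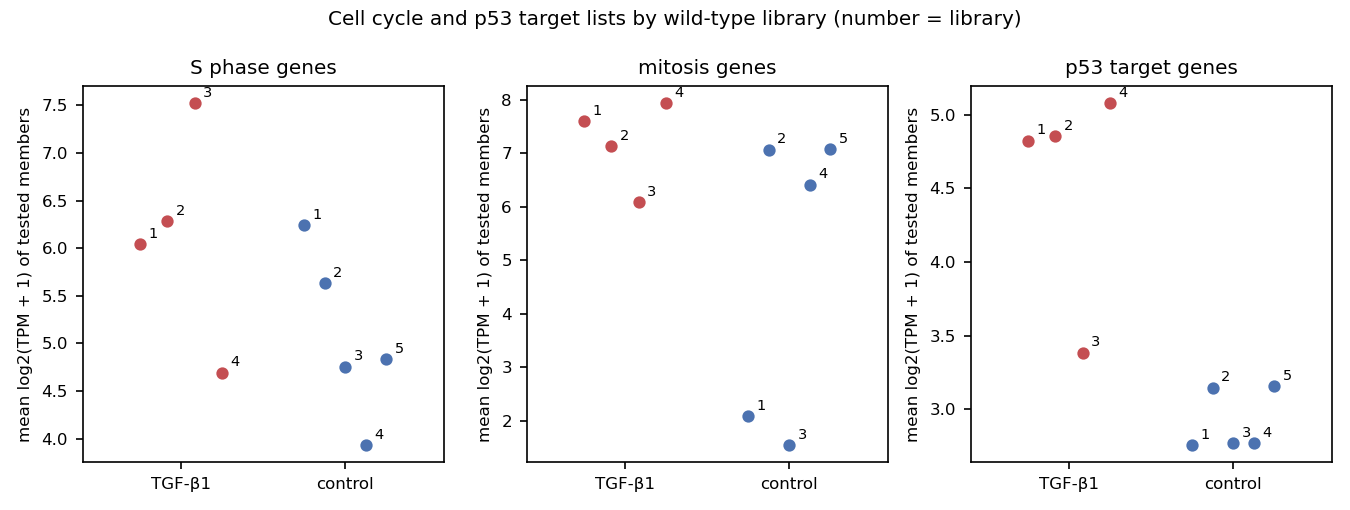
Mean log2(TPM + 1) over the tested S phase (36), mitosis (34) and p53 target (30) genes, with 1 point per library numbered as in the text, the 4 TGF-β1 libraries in red at the left and the 5 controls in blue at the right. The y axes differ and do not start at 0. In the p53 panel the TGF-β1 libraries (3.39 to 5.08) lie above the controls (2.76 to 3.16), while in the other panels the groups overlap.

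Aurkb, a kinase of chromosome segregation, was at 291, 103, 174 and 124 TPM with TGF-β1, against 0.31, 184, 0, 0.12 and 154 TPM in controls (adjusted p = 0.226). It was near 0 in 3 of the 5 controls and as high as in TGF-β1 libraries in the others. Rrm2, the subunit of ribonucleotide reductase that limits nucleotide supply, was at 652, 174, 902 and 121 TPM with TGF-β1, against 64.9, 108, 31.8, 13.6 and 85.3 TPM in controls, and Tk1, thymidine kinase, at 379.9, 128, 524 and 124 TPM with TGF-β1, against 116, 74.8, 9.03, 52.2 and 37.5 TPM in controls. In these S phase genes all TGF-β1 libraries exceeded all controls, without a call (adjusted p = 0.398 and 0.311). Ncapg2, a condensin subunit that compacts chromosomes, was at 30.9, 31.2, 59.6 and 42.8 TPM with TGF-β1, against 0.26, 9.93, 1.61, 0.02 and 0.01 TPM in controls, with the lowest adjusted p of any uncalled gene that the naming rule took (0.0504). Pole2, a subunit of a DNA polymerase, was at 73.5, 47.4, 27.2 and 25.3 TPM with TGF-β1, against 0.03, 0, 1.33, 0 and 0 TPM in controls (adjusted p = 0.0577).

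Genes of cell shape changed in both directions. Tmsb4x (chromosome X), thymosin beta 4, which holds actin monomers in reserve, was at 18768, 15314, 15266 and 18966 TPM with TGF-β1, against 6492, 4204, 6589, 10227 and 5179 TPM in controls, a difference of 1.44 ± 0.26 (adjusted p = 0.0161). It was not called without TGF-β1 library 1 (adjusted p = 0.0623) or 4 (0.0627), nor under quantile normalization (0.0726). Its relative Tmsb10 was at 444, 392, 275 and 374 TPM with TGF-β1, against 922, 1146, 1048, 969 and 498 TPM in controls, below every control, a difference of -1.27 ± 0.299 in the other direction that did not pass (adjusted p = 0.0844). Tmsb4x was the only called gene among 41 tested actin cytoskeleton genes, of which 20 had positive and 21 negative differences. Vasp, which promotes actin filament growth, was at 57.3, 135, 29.3 and 71.4 TPM with TGF-β1, against 19.99, 3.35, 8, 22.4 and 14.5 TPM in controls, with no overlap (adjusted p = 0.211). Tuba1b, an alpha-tubulin, was at 4989, 3669, 2639 and 3796 TPM with TGF-β1, against 1066, 2079.9, 637, 1450.3 and 1957 TPM in controls, also with no overlap (adjusted p = 0.0714).

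Vim (chromosome 2), the intermediate filament protein vimentin, was at 1269, 2573, 867 and 1087 TPM with TGF-β1, against 2159, 3929, 3546, 6343 and 6909.6 TPM in controls. TGF-β1 library 2 exceeded control library 1, and Vim was thus the 1 called gene whose groups overlapped. It fell by 1.67 on the log2 scale (SE 0.34; adjusted p = 0.0446), and was called in 2 of the 9 fits that left out a library, those without control library 1 or TGF-β1 library 2. In the other 7 the adjusted p was 0.07 (without control library 3) to 0.118 (without TGF-β1 library 3).

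Lgals3 (chromosome 14), galectin-3, a sugar-binding protein abundant in activated macrophages, was at 4023, 10347, 3395 and 3139 TPM with TGF-β1, against 12917, 28224, 15071, 25085 and 15986 TPM in controls, a difference of -2.02 ± 0.34 (adjusted p = 0.00846). TGF-β1 library 2 came close to the lowest control, and without TGF-β1 library 4 the gene was not called (adjusted p = 0.0547). Anxa2 (chromosome 9), a calcium-dependent membrane-binding protein, was at 396, 694, 588 and 287 TPM with TGF-β1, against 1018, 884, 1255, 1469.7 and 1751 TPM in controls, a difference of -1.41 ± 0.27 (adjusted p = 0.0317). The call was lost without control library 3 (adjusted p = 0.07), 4 (0.0789) or 5 (0.0647) and without TGF-β1 library 1 (0.0963) or 4 (0.102). S100a10, the partner of annexin A2 in a tetramer, was at 401, 381, 56.96 and 368 TPM with TGF-β1, against 648, 743, 692, 1245 and 1729 TPM in controls (difference -1.97 ± 0.46, adjusted p = 0.0809). S100a11 was at 97.3, 163, 111 and 78.1 TPM with TGF-β1, against 285, 231, 179, 371 and 621 TPM in controls (adjusted p = 0.111). Of the 20 tested annexins, S100 proteins and galectins, 2 were called, both lower, 15 differences were negative and 5 positive, and the median was -0.71. All TGF-β1 libraries lay below all controls for 5 of the 20, against 0.987% of all genes tested. They lay above all controls for Anxa3, at 402, 353, 484 and 678 TPM with TGF-β1, against 256, 0.76, 293, 318 and 176 TPM in controls (adjusted p = 0.497).

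**Figure D4:**
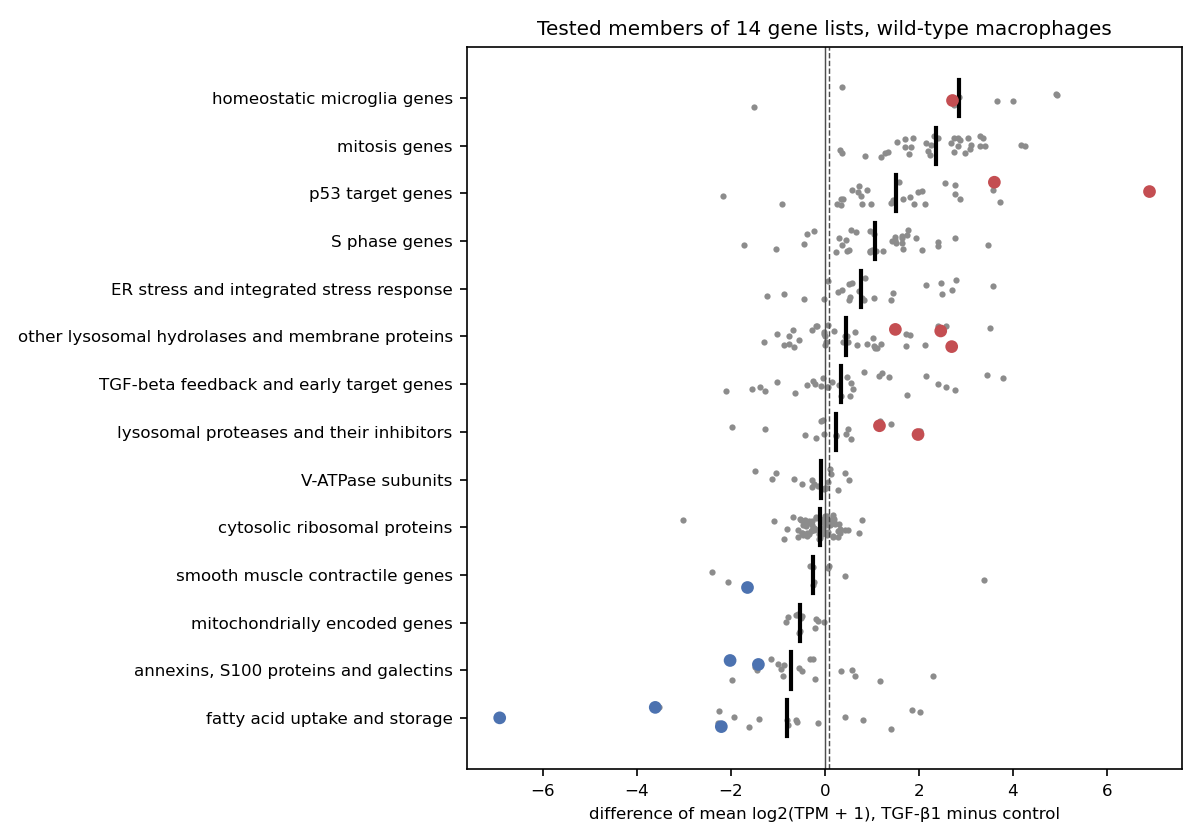
Tested members of 14 gene lists by their difference of mean log2(TPM + 1), TGF-β1 minus control (x axis), with the list's median as a black bar, called genes in red (higher with TGF-β1) or blue (lower) and the others in grey. The dashed line is the median of all genes tested (0.09), and the medians run from 2.86 for microglia genes to -0.81 for fatty acid uptake and storage. Members too low to be tested are not shown, which favours a positive median where controls hardly express a list.

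Genes of contractile, matrix-producing cells were mostly not expressed. Of 24 smooth muscle contractile genes 8 were listed at 0 in all 9 libraries and 11 were tested, of which Vim alone was called, and it was lower. Acta2, which encodes the smooth muscle actin used in the sort, was at 0, 0.12, 22.5 and 0 TPM in TGF-β1 libraries 1 to 4, against 0.06, 0.03, 0.06, 0.09 and 0.06 TPM in control libraries 1 to 5. A single library, TGF-β1 library 3, exceeded 1 TPM, and the gene was too low to be tested. Smtn, smoothelin, a protein of contractile smooth muscle, was at 14.96, 34.7, 16.9 and 25.2 TPM with TGF-β1, against 0.03, 4.94, 0, 0.35 and 4.77 TPM in controls, with no overlap, a difference of 3.39 ± 1.23 and no call (adjusted p = 0.344). Of 33 genes of collagens, matrix proteins and matrix-modifying enzymes 22 were listed at 0 in all 9 libraries, among them Col1a1 and Fn1. The 5 that were tested encode enzymes that modify collagen in the cell, and none was called by limma, 1 having an unadjusted p under 0.05. That 1 was Plod1, a lysyl hydroxylase, at 134, 153, 118 and 76.99 TPM with TGF-β1, against 33.5, 46.4, 0.17, 44.1 and 13.3 TPM in controls (difference 2.83 ± 0.82, adjusted p = 0.204). None of 16 tested matrix proteases and inhibitors was called by limma, 5 had an unadjusted p under 0.05, and their median was -0.49. Plau, the urokinase that activates plasminogen, was at 5.29, 33.7, 1.03 and 109 TPM with TGF-β1, against 108, 127, 92.5, 41.4 and 369 TPM in controls (adjusted p = 0.439).

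limma called no gene of the TGF-β pathway itself. Of its receptors, Tgfbr1 was at 18.7, 59.7, 33.8 and 171 TPM with TGF-β1, against 10.4, 28.4, 21.1, 38.6 and 25.5 TPM in controls (adjusted p = 0.607). Tgfbr2 was at 0.03, 14.3, 12.5 and 32.7 TPM with TGF-β1, against 11.2, 8.08, 11.98, 9.29 and 0.29 TPM in controls, and Tgfb1 at 2.24, 2.85, 0.1 and 0.47 TPM with TGF-β1, against 15.5, 0.91, 0.33, 0.15 and 0.11 TPM in controls. All 3 overlapped between the groups. Smad2 was at 32.97, 28.96, 94.5 and 0.02 TPM with TGF-β1, against 44.7, 0.06, 86.3, 66.3 and 23.2 TPM in controls, and Smad4 at 2.59, 4.47, 43.3 and 0.02 TPM with TGF-β1, against 0.02, 18.3, 24.8, 0.06 and 0 TPM in controls. Of 14 tested ligands and receptors of the family and 7 tested Smads, 2 and 1 had an unadjusted p under 0.05. Gdf15, a stress-induced member of the TGF-β family that is also a p53 target, was at 13.9, 17.1, 58.95 and 9.14 TPM with TGF-β1, against 0, 0, 0, 0.12 and 0.07 TPM in controls, with no overlap and a difference of 4.28 ± 0.96 (adjusted p = 0.0766).

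Of 31 tested feedback and early target genes of TGF-β, 8 had an unadjusted p under 0.05, 20 differences were positive and 11 negative, and the median was 0.34. Pmepa1, a feedback inhibitor that traps Smad2 and Smad3, was at 47.6, 39.2, 49.1 and 47.3 TPM with TGF-β1, against 13.4, 0, 0, 0 and 30.2 TPM in controls, with all TGF-β1 libraries close together and above every control (difference 3.78 ± 1.19, adjusted p = 0.257). Smad7, the inhibitory Smad, was at 18.7, 0.91, 6.23 and 15.98 TPM with TGF-β1, against 0.15, 6.1, 0.08, 0 and 0.06 TPM in controls (adjusted p = 0.466). Ldlrad4, another inhibitor of Smad phosphorylation, was at 0, 1.79, 20.8 and 21.1 TPM with TGF-β1, against 0, 0, 0.02, 0.04 and 0 TPM in controls (adjusted p = 0.307). Id1, an inhibitor of basic helix-loop-helix factors, was at 328, 266, 1068 and 877 TPM with TGF-β1, against 449.9, 242, 66.9, 0.52 and 23.4 TPM in controls (adjusted p = 0.439). Smad7 and Ldlrad4 were each below 1 TPM in 1 of the TGF-β1 libraries.

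Inflammatory genes gave 1 call, Traf3ip3, among 19 tested cytokines and feedback genes of NF-κB, and limma called none of 16 tested chemokines, 5 of which had an unadjusted p under 0.05. Ccl4, a chemokine that attracts monocytes and T cells, was at 579, 170.4, 124 and 85.95 TPM with TGF-β1, against 0.26, 15.1, 0.08, 29.7 and 0.08 TPM in controls, with no overlap and a difference of 5.599 ± 1.18 (adjusted p = 0.0595). Ccl9, a chemokine named after its values were seen, went the other way. It was at 29.88 to 74.36 TPM with TGF-β1 and 113.77 to 537.24 TPM in controls, a difference of -2.195 ± 0.565 (adjusted p = 0.122). Tnf, tumour necrosis factor, was at 61.6, 109, 85.3 and 47.3 TPM with TGF-β1, against 0.31, 33.7, 20.3, 0.07 and 25.8 TPM in controls, also with no overlap (adjusted p = 0.404). Nfkb1, a subunit of NF-κB, was at 135, 42.9, 90.99 and 25.3 TPM with TGF-β1, against 20.6, 48.7, 0.35, 0.14 and 0.1 TPM in controls (adjusted p = 0.291). Il1rn, the antagonist of the interleukin-1 receptor, was at 50.2, 19.2, 0.15 and 0.53 TPM with TGF-β1, against 214, 169.6, 124, 0.75 and 53.8 TPM in controls (adjusted p = 0.472). Tnip3, which helps to restrain NF-κB, was at 9.74, 2.28, 0.01 and 0.01 TPM with TGF-β1, against 80.5, 25.8, 36.9, 20.1 and 55.8 TPM in controls, below every control (difference -4.02 ± 0.92, adjusted p = 0.0766).

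The early response genes Ier3 and Egr1 were at 176, 99.8, 62.99 and 18.6 TPM and 20.7, 15.04, 56.9 and 0 TPM with TGF-β1, against 0, 0.1, 40.5, 1.71 and 0.04 TPM and 0, 0.02, 0, 0 and 0.02 TPM in controls (adjusted p = 0.136 and 0.157). They belong to 24 tested immediate-early and stress-induced genes with a median of 0.90, of which limma called none and 11 had an unadjusted p under 0.05. Genes that interferon induces gave no limma call among 25 tested, with a median of 0.05. Of the 25, 2 had an unadjusted p under 0.05, against 9.97% of all genes tested. None of the 5 tested genes of MHC class II, which presents antigen, was called by limma, and 2 had an unadjusted p under 0.05. Control library 3 stood apart for these: the whole list summed to 59.7 to 145 TPM with TGF-β1, against 2450.1 TPM in control library 3 and 0.16 to 214 TPM in the other controls. H2-Aa and H2-Ab1, chains of the presenting molecule named after their values were seen, were at 544 and 382 TPM in that library and listed at 0 in the other 8. Of 23 tested Toll-like and Fc receptors limma called none, with 6 at an unadjusted p under 0.05. Ly96, the partner of the endotoxin receptor Tlr4, was at 181, 40.6, 0 and 0 TPM with TGF-β1, against 172, 124, 95.6, 52.95 and 112 TPM in controls (adjusted p = 0.285). Tlr7, a sensor of RNA in endosomes, was at 77.98, 42.6, 107 and 28.7 TPM with TGF-β1, against 42.6, 14.5, 15.1, 0.87 and 3.75 TPM in controls (adjusted p = 0.46).

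In redox and iron handling, 1 of 30 tested antioxidant genes was called. This was Esd (chromosome 14), esterase D, a glutathione thioesterase that takes part in clearing formaldehyde, at 352, 791, 867 and 278 TPM with TGF-β1, against 1992, 2429, 2469, 2172 and 2795 TPM in controls. The controls were tight and far above every TGF-β1 library, and Esd fell by 2.21 on the log2 scale (SE 0.34; adjusted p = 0.00528). Gstm4, a glutathione transferase, was at 0.07, 0, 0 and 0.09 TPM with TGF-β1, against 44.5, 57.05, 25.7, 55.6 and 10.3 TPM in controls (adjusted p = 0.0954), and Taldo1, transaldolase of the pentose phosphate pathway, at 682, 915, 556 and 616 TPM with TGF-β1, against 1042, 1670.4, 1252, 1652 and 1276 TPM in controls (adjusted p = 0.0875). Mafg, a partner of the antioxidant regulator Nrf2, was at 0, 2.76, 0.07 and 0.51 TPM with TGF-β1, against 11.2, 23.2, 56.99, 49.4 and 59.1 TPM in controls (adjusted p = 0.0682). Hmox1, heme oxygenase 1, was at 271, 236, 74.7 and 484 TPM with TGF-β1, against 856, 499.6, 759, 986 and 1784 TPM in controls (adjusted p = 0.106). In each of these 4 uncalled genes every TGF-β1 library lay below every control. The 30 antioxidant genes had a median of -0.14, with 11 positive and 19 negative differences.

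Of 15 tested iron genes limma called none, and 6 had an unadjusted p under 0.05. Slc40a1, ferroportin, the exporter of iron from macrophages, was at 8.73, 6.03, 27.4 and 15.2 TPM with TGF-β1 and listed at 0 in all 5 controls (adjusted p = 0.208). Slc11a1, which pumps iron and other metals out of phagosomes, was at 0.38, 147, 0.27 and 66.1 TPM with TGF-β1, against 169, 629, 515, 412 and 157 TPM in controls (difference -4.82 ± 1.402, adjusted p = 0.204). The groups did not overlap for either gene, although the TGF-β1 libraries differed among themselves for Slc11a1. The summed level of the list, which includes the abundant ferritin chains, was 43943 to 73046.5 TPM with TGF-β1 and 74431.5 to 92490.2 TPM in controls.

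A pair of called genes belonged to none of the groups above. Rnh1 (chromosome 7), the cytosolic inhibitor of ribonucleases, was at 322, 857, 537 and 237 TPM with TGF-β1, against 1015, 2222, 1325, 1011 and 1564 TPM in controls, and fell by 1.65 on the log2 scale (SE 0.32; adjusted p = 0.038). It was not called without control library 2 (adjusted p = 0.0843), 3 (0.0751) or 5 (0.0647) or without TGF-β1 library 1 (0.116) or 4 (0.108). Gm10157 (chromosome 9), annotated as a processed pseudogene, was at 0, 0, 1.59 and 22.1 TPM with TGF-β1, against 106, 114, 67.6, 104 and 158 TPM in controls, a difference of -5.27 ± 0.73 (adjusted p = 0.00247). Its value is uncertain, since the estimation shares reads between a pseudogene and its near-identical parent.

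Among uncalled genes without overlap, Galnt3, which starts O-linked glycosylation, was at 29.2, 8.78, 0.24 and 12.7 TPM with TGF-β1 and listed at 0 in all controls (adjusted p = 0.0595). Rasal3, which turns off Ras in blood cells, was at 127, 108, 102 and 178 TPM with TGF-β1, against 0.29, 0.93, 34.3, 33.5 and 0.09 TPM in controls (adjusted p = 0.0595). Mcam, an adhesion molecule, was at 63.02, 13.96, 11.5 and 20.2 TPM with TGF-β1, against 0.04, 0.14, 0, 0.02 and 0 TPM in controls (adjusted p = 0.0622), and none of the controls reached 1 TPM. Ramp1, a subunit of the receptor for the neuropeptide CGRP, was at 9.63, 12.9, 23.3 and 90.9 TPM with TGF-β1, against 0, 0, 0.06, 0 and 0 TPM in controls (adjusted p = 0.0649). Tmem175, a lysosomal ion channel, was at 42.2, 46.5, 38.2 and 34.7 TPM with TGF-β1, against 0, 0, 0, 0.06 and 13.6 TPM in controls (adjusted p = 0.0649). Each of these 5 genes exceeded 1 TPM in at least 3 TGF-β1 libraries and in at most 2 controls.

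On the lower side, Clec4d, a lectin receptor for microbial glycolipids, was at 78.8, 199, 219 and 60.2 TPM with TGF-β1, against 466, 507, 319.8, 455 and 719.9 TPM in controls (adjusted p = 0.0766). Cd300lb, an activating receptor of myeloid cells, was at 64.4, 37.2, 3.74 and 40.4 TPM with TGF-β1, against 265, 98.9, 146, 173 and 198 TPM in controls (adjusted p = 0.0766). Mtss1, a protein that bends membranes and organises actin, was at 2.79, 18.2, 2.48 and 0.05 TPM with TGF-β1, against 64.8, 79.5, 90.6, 56.3 and 46.9 TPM in controls (adjusted p = 0.0861). For these 3 genes all TGF-β1 libraries lay below all controls.

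All 13 mitochondrially encoded genes had negative differences, with a median of -0.53 and none called by limma, and 5 had an unadjusted p under 0.05. Their share of all TPM was 3.55%, 2.19%, 2.79% and 2.96% in TGF-β1 libraries 1 to 4, against 3.59%, 3.43%, 5.34%, 3.24% and 3.78% in control libraries 1 to 5, so the groups overlapped. The 76 tested cytosolic ribosomal protein genes had a median of -0.10, and their share of all TPM was 2.82% to 3.59% with TGF-β1 and 2.90% to 3.68% in controls. The 24 tested genes of ER stress had 20 positive and 4 negative differences and a median of 0.77, with none called by limma and 3 at an unadjusted p under 0.05. A glycolysis list of 21 tested genes held enzymes and also genes such as Slc2a1, Slc16a3, Pdk1, Bnip3 and Hif1a. None of the 21 had even an unadjusted p under 0.05, and limma called none of them.

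The same contrast was read in the 3 TGF-β1 and 5 control libraries labelled Smad3 knockout, to ask where the wild-type response differed. Smad3 transcript in them was 6.18, 0.01 and 22.3 TPM with TGF-β1 and 0, 0.27, 1.93, 0 and 0 TPM in controls. In wild type it was listed at 0 in every TGF-β1 library, so its level did not follow the label. Whether the transcript came from an intact gene was not tested, and the genotype rests on the label alone. limma called 1 gene there (0.00823%). Of the 22 genes called in wild type, 21 had a difference of the same sign in libraries labelled knockout, and all 22 had a smaller absolute one. For the difference between the effects limma called 0 of 12158 genes (0.0%), 569 had an unadjusted p under 0.05 (4.68%), and 12 of the 22 were among these. The 22 were chosen by their wild-type effect, which is also a term of the difference between the effects, so none of these counts over the 22 supports a difference between the genotypes.

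**Figure D5:**
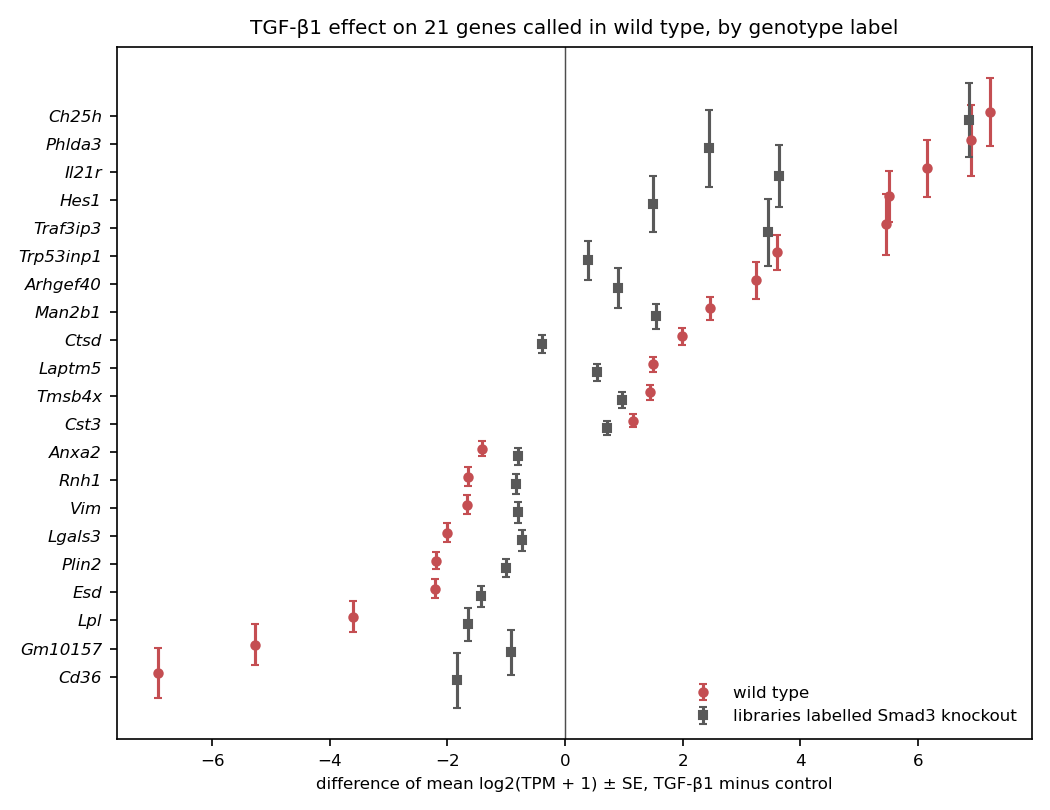
Difference of mean log2(TPM + 1) ± SE, TGF-β1 minus control (x axis), for 21 of the 22 genes called in wild type, in wild-type libraries (red circles) and in libraries labelled Smad3 knockout (grey squares). Ctsd alone lies on opposite sides of 0, at 1.98 in wild type and -0.40 in libraries labelled knockout.

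Ctsd had the lowest p of the 22 for that difference. In libraries labelled knockout it was at 9714, 5591 and 6261 TPM with TGF-β1, against 5548, 12633, 9269.9, 8631 and 11663 TPM in controls. The effect there was -0.396 ± 0.32 on the log2 scale, and the difference of the effects, wild type minus knockout label, was 2.38 ± 0.44 (unadjusted p = 2.66e-05, adjusted p = 0.3). Cd36 was at 283, 38.8 and 51.95 TPM with TGF-β1 and 396, 361, 97.8, 199 and 861 TPM in controls in libraries labelled knockout, so that the near absence seen in wild type was not present there. Its difference of effects was -5.08 ± 1.32 (unadjusted p = 0.000996, adjusted p = 0.997). Ch25h was at 182, 1062 and 337 TPM with TGF-β1, against 0.11, 0.11, 0, 20.2 and 18.5 TPM in controls, an effect of 6.86 ± 1.32 beside 7.23 ± 1.21 in wild type. Trp53inp1 and Hes1 had effects of 0.39 ± 0.69 and 1.499 ± 0.99 in libraries labelled knockout, with unadjusted p of 0.00259 and 0.00773 for the difference and an adjusted p of 0.997 for both. None of these differences between genotype labels passed the adjusted threshold.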

How the data were processed

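The authors deposited TPM values for 17 mouse macrophage libraries. Per the submitters' processing notes, FastQC, Trim Galore and RSEM were used with the mouse build mm9, without stated versions. The unit retains no information on sequencing depth, so no counting interval or lower limit could be given, and the number of libraries sets the precision. Reads that fit several near-identical transcripts are split by RSEM, which makes values of paralogs, pseudogenes and overlapping genes uncertain. Symbols from GENCODE vM21 were found for 32897 of the 37620 gene IDs, and the other 4723, with 2.99% to 5.87% of the TPM of a wild-type library, stayed in the tests.

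Groups were taken from the sample titles. A gene entered the test if 3 or more of the 17 libraries had it at TPM 1 or above, which 12158 genes did. Values were taken as log2(TPM + 1), a scale that understates the change of low genes. One fit by limma 3.58.1 (R 4.3.3), using lmFit and trended eBayes, covered the 4 groups, with 13 residual degrees of freedom. Its contrasts were TGF-β1 minus control within wild type, that contrast within libraries labelled knockout, and the difference between them. The called genes passed a Benjamini-Hochberg adjusted p of 0.05. Every fold change is thus on the log2(TPM + 1) scale. The fit was tested on simulated data with normal values, independent between libraries. The real values hold many zeros and differences shared by many genes of a library, so that test does not measure the error rate here.

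A rule on genes listed at 0 decided whether libraries were treated as replicates or as single cells: the share listed at 0, among genes that averaged 10 to 50 TPM in the rest of the group, had a median of 8.78%, under the limit of 10%, while 6 of the 17 libraries were over it. Libraries were therefore treated as replicates, and all p-values rest on that choice. With a median so near the limit, the rule gives no evidence on the number of cells behind each library. Pairs of wild-type controls had a median correlation of 0.665 (0.624 to 0.697), and pairs of wild-type TGF-β1 libraries 0.704 (0.668 to 0.748). Between the groups it was 0.656 (0.611 to 0.718), so controls were hardly more alike than libraries of different groups. The number of cells was not tested.

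The text names every called gene with a symbol save 1 that is not reported here, up to 10 uncalled genes per direction without overlap and with a mean of at least 10 TPM in 1 group, up to 4 members of each gene list with the largest differences, and a few genes such as Smad3 and Acta2 whatever their values. The lists and members were chosen with earlier results of these data known. Lists are described by counts and medians, with no test. Alternatives changed the pseudocount, the filter, the scaling, the covariates, the libraries and the fit.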

Additional observations from a re-analysis of the deposited data

Results flagged for a closer look

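Libraries far from the rest of their group, by Dixon's criterion, were found in 25 of 206 groups of values examined. Its chance rate of about 1 in 20 groups holds for normal values. TPM with many zeros are not normal, so it cannot be told whether the count exceeds chance. Some flags rest on values near 0, such as that of P2ry13. Among controls, library 5 was high for Traf3ip3 (19.96 TPM), Tmem175 (13.6 TPM) and Arhgef40 (0.12 TPM), and low for Scarb2 (0.12 TPM), Tgfbr2 (0.29 TPM), Cd68 (1435 TPM) and Tmsb10 (498 TPM). Control library 3 was high for Pole2 (1.33 TPM), Ier3 (40.5 TPM) and Ramp1 (0.06 TPM), and in its mitochondrial share (5.34%). Control library 1 was high for Ch25h (48.1 TPM), Bbc3 (12.2 TPM) and Tgfb1 (15.5 TPM), library 2 was high for Smad7 (6.1 TPM) and P2ry13 (0.02 TPM) and low for Anxa3 (0.76 TPM), and library 4 was low for Il1rn (0.75 TPM).

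Among TGF-β1 libraries, library 3 was low for S100a10 (57.0 TPM) and P2ry13 (0 TPM) and had the highest share taken by its most abundant gene (4.83%). Library 2 was high for Fabp4 (9.12 TPM) and low for Pmepa1 (39.2 TPM), and library 4 was low for Cpt1a (0 TPM) and high for Mertk (0.02 TPM).

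Tmem175 went in opposite directions under the genotype labels. It was at 42.2, 46.5, 38.2 and 34.7 TPM with TGF-β1, against 0, 0, 0, 0.06 and 13.6 TPM in controls, in wild type, and at 14.5, 0 and 6.02 TPM with TGF-β1, against 35.3, 35.4, 41.2, 16.3 and 77.3 TPM in controls, in libraries labelled knockout. The difference of the effects was 7.55 on the log2 scale (limma unadjusted p = 4.93e-05, adjusted p = 0.3).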

How the results depend on the processing

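The count of 22 called genes was within 1.5 times under 15 of 22 alternatives. It was 6 with no filter on low values, 5 with the wild-type libraries fitted alone, 7 with the cell cycle mean as a covariate, and 5, none of them among the 22, without the libraries over 10% at 0. Leaving out 1 wild-type library gave 14 (without TGF-β1 library 4) to 34 (without TGF-β1 library 3). Replicate numbers did not pair the libraries, since no number's libraries correlated best with each other, and with the replicate block 11 genes were called, all among the 22. Over all alternatives no called gene changed direction, and 150 of 483 gene results lost the call. Ch25h lost it with a pseudocount of 0.1 (adjusted p = 0.0509). The difference of effects between genotype labels was called for 1 gene with no filter, and for 0 to 1 when 1 library was left out.

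Of 75 uncalled genes named, Ccl9 not among them, 24 were called under at least 1 alternative and 7 changed sign. With the cell cycle covariate Smad2 was at 0.59 and Cd68 at 0.37, with a pseudocount of 0.1 Tgfb1 was at 0.21, and with one of 10 C1qb was at 0.23. Without libraries over 10% at 0, C1qb was at 5.13, Mertk at 0.0095, Smad4 at -0.71, Smad2 at 0.54 and Tgfbr2 at -0.37. With 1 library left out the range was -2.44 to 1.19 for C1qb, -0.35 to 0.66 for Tgfb1, -1.51 to 0.98 for Smad2, -0.37 to 1.44 for Smad4 and -0.26 to 1.41 for Tgfbr2. The depth of the libraries is unknown.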
